A study of Mus musculus with 208 samples.

Results

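The hypothalamic neuron profile described here is that of 9 RNA-seq libraries among the 208 of the series. They are the hypothalamic libraries of the SAL–SAL condition whose total count reached 0.5 times the median total of all libraries of that region, as 9 of 11 did. They were set against the 36 SAL–SAL libraries kept by the same rule from the other forebrain regions, 13 from the hippocampus, 10 from the prefrontal cortex (PFC) and 13 from the striatum. Only the 22255 genes with counts in all 4 regions were used, of 46403 listed.

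All animals were wild-type C57BL/6NTac mice of both sexes. SAL–SAL animals had dams carrying a saline minipump, received saline as pups and were injected with saline as adults, and tissue was taken 2 hours after that last injection. The methods give an age of 8 to 12 weeks for the mice of the immune challenge. The labels describe a bilateral punch for all 4 regions, whereas the methods describe 2 punches side by side for the hypothalamus, so each region is a punch and not a dissected nucleus. About 5000 nuclei that bind NeuN, the neuronal antigen encoded by Rbfox3, were sorted per library before nuclear RNA was sequenced with a modified Smart-seq3 protocol. Each library came from 1 animal. The 45 libraries came from 15 animals of 7 litters, and every one of the 9 hypothalamic animals also gave a library of another region. The remaining conditions of the study combine perinatal morphine (MOR) with an adult challenge by lipopolysaccharide (LPS), a bacterial cell wall component.

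The hypothalamus arises from the embryonic diencephalon, whereas the cortex, hippocampus and striatum are telencephalic. Its neurons form many small nuclei that control feeding, water balance, reproduction, stress and sleep, largely through peptides packed in secretory granules, and each nucleus is specified by its own transcription factors. Excitatory hypothalamic neurons load glutamate through VGLUT2, encoded by Slc17a6, whereas cortical and hippocampal ones mostly use VGLUT1, encoded by Slc17a7.

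The hypothalamic libraries held 3128218 to 9052588 counts (median 5428960). Those of the hippocampus held 6036905 to 22488625, those of the PFC 6605680 to 13784531 and those of the striatum 6658372 to 26176775, so the hypothalamus was the shallowest region by its median. The long non-coding RNA gene Gm26917 took 9.17 to 36.8% of the counts in the hypothalamus, with medians of 4.89, 5.56 and 5.78% in the hippocampus, PFC and striatum. Its highest shares in those 3 regions were 8.37, 7.21 and 11.1%. Another gene, Rn18s-rs5, took 1.46 to 5.28% in the hypothalamus and 0.735 to 30.9% in the PFC (median 3.59%). No SAL–SAL library went against its labelled sex by a summed level of 4 Y-linked genes above or below 50 CPM. Levels below are CPM, counts scaled to a common library total, after TMM scaling, and are called normalized CPM. The log2 fold change (log2FC) is that of the hypothalamus over the mean of the 3 regions, with its standard error. A gene was called higher or lower at an adjusted p under 0.05 in edgeR's quasi-likelihood test with Benjamini-Hochberg adjustment. It was called higher or lower than each region if it also differed at least 2-fold (a log2FC of at least 1 in size), at that threshold, in all 3 pairwise contrasts. In such bulk libraries, fewer cells of a type and less RNA per cell cannot be told apart.

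The 9 hypothalamic libraries were not alike. Animals 10-1 and 10-3, both females of litter 10, carried thalamic markers at summed levels of 6450 and 4654 normalized CPM, while the other 7 libraries held 326 to 2504. The same 2 libraries were nearly empty of several hypothalamic markers, with Sim1 at 0 and 0, Magel2 at 1.38 and 0.38, and Th at 0.344 and 0.19 normalized CPM. Animals 4-1 and 9-4, the other females, carried oligodendrocyte markers at 5910 and 4322 normalized CPM against 94.6 to 493 in the remaining 7. The male 5-1 stood apart in the monoamine genes, at 1029 normalized CPM against 44.6 to 253. Each of the 4 hypothalamic females therefore stood apart in thalamic or glial markers, and sex and these markers cannot be told apart within the hypothalamus. Leaving out litter 10 ended the calls of Neurod2, Agrp and Lef1 among the named genes. Without 4-1, Lepr and Mag were not called, and without 9-4, Nts, Hcrtr1 and Mag were not. Neurod2 was also not called without 1-3, 11-1, 3-2, 5-1 or 5-3, each left out alone, nor Nts without 1-3. Of the 118 genes followed through the fits below, the other calls were kept without litter 10 or 1 hypothalamic library, though the size of the difference moved. Values without a library are given below for several genes at which it stood apart. Calls of genes outside these 118, named with their lists, were not all kept. Slc6a4 was not called without 5-1. Hypothalamic transcription factors called higher went from 15 to 14 without 1-3, and neuropeptides from 10 to 9 without 11-1.

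**Figure D1:**
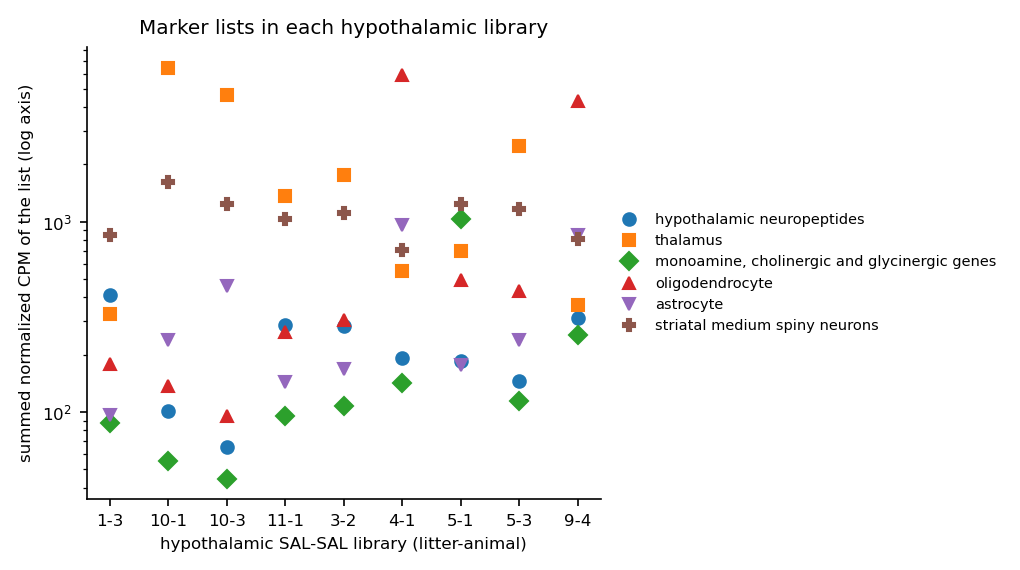
Summed normalized CPM of marker lists (log-scaled y axis) in each of the 9 hypothalamic SAL–SAL libraries (x axis, litter and animal number). Thalamic markers peak at 6450 and 4654 in animals 10-1 and 10-3, and oligodendrocyte markers at 5910 and 4322 in animals 4-1 and 9-4.

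The hypothalamic counts also differed from those of the other regions in a way that followed gene structure. Of the 46403 genes, 8442 had counts in the hypothalamus but in no library of the hippocampus, PFC or striatum. Of these, 944 reached a mean of 10 CPM in the hypothalamus. Structure was known for 695 of the 944, and 99.9% of the 695 overlapped the body of another gene, against 56.9% of 9231 genes with structure at that level counted everywhere. Xist, the RNA of the inactive X chromosome, lay at 965 to 1292 CPM in the 4 hypothalamic females and was 0 in all 6 females of each other region. Among the tested genes, the log2FC fell with the ratio of gene body length to exon length (Spearman's rho of -0.42 across 19763 genes, which are not independent). The median log2FC was 0.65 for genes whose body is at most 1.2 times their exons, 0.09 for ratios of 4 to 8 and -3.16 above 64, where 83% of genes were called lower. The methods describe the same counting step for all regions, and the strand setting is not given in the sources used here. Region and the way of counting cannot be told apart in these files.

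**Figure D2:**
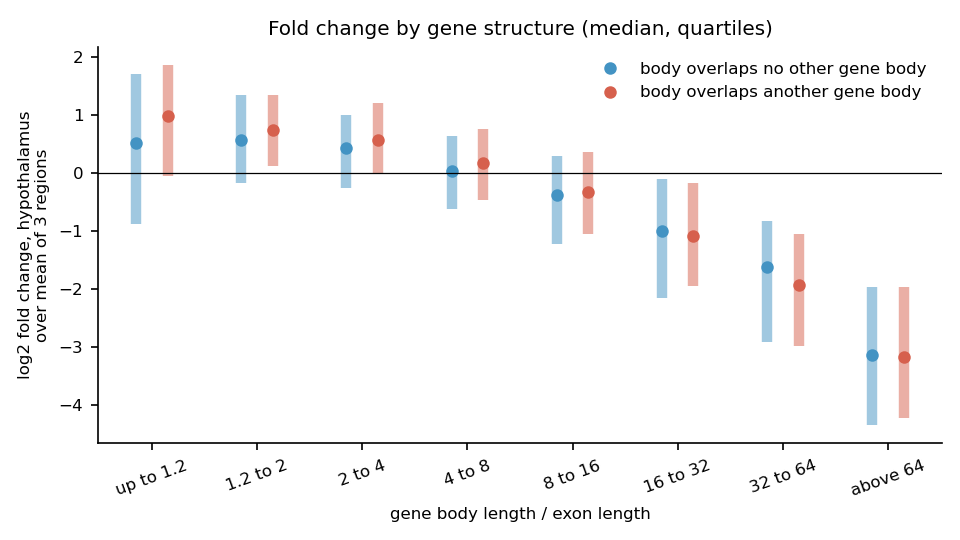
Log2 fold change of the hypothalamus over the mean of the 3 regions (y axis, medians with quartiles) in bins of gene body length over exon length (x axis). The median goes from 0.65 in the lowest bin to -3.16 above a ratio of 64.

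Counts and gene lists are therefore also given in fits less exposed to gene structure, as are many of the named genes whose call changed there. The fit over all 21058 tested genes called 4596 higher (21.8%) and 4598 lower (21.8%), with 978 higher (4.64%) and 2156 lower (10.2%) than each region. In one of these fits the trend over this ratio was removed together with those over exon length and exon GC content, so its values are not those of the ratio alone, and it holds the 19763 genes with known structure. With this trend removed, named the trend or the ratio trend from here on, these counts were 3757 (19%), 2992 (15.1%), 956 (4.84%) and 734 (3.71%). The strictest set was that of compact genes, whose body is at most 2 times their exon length and overlaps no other gene body. Of 1183 compact genes, 142 were called higher (12%) and 156 lower (13.2%), and 9 were higher (0.761%) and 39 lower (3.3%) than each region. Of the calls against the mean, 49.99% were higher in the main scaling, 59.5% with DESeq2's size factors and 63% with library totals alone, and these 2 scalings moved the median log2FC of all genes from 0.01 to 0.20 and 0.28.

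Transcription factors that specify hypothalamic nuclei were mostly higher. Of 35 listed, 22 could be tested. Against the 21.8% called among all genes in each direction, 15 were higher and 1, Arnt2, was lower. Their median log2FC was 2.69, where that of all tested genes was 0.01, and 2.61 with the ratio trend removed, where 14 were higher and 0 lower in edgeR's test (16 and 1 at an unadjusted p under 0.05). The summed level of the 22 genes did not set the hypothalamus apart, with a median of 233 normalized CPM against 224, 355 and 330 in the hippocampus, PFC and striatum, of which Arnt2 alone had medians of 109 against 171, 292 and 248. Sim1, Lhx1, Lhx5, Barhl1, Onecut3 and Nhlh2 were higher than each region. Nkx2-1, Nkx2-2, Lhx9, Nr5a1, Tbx3, Barhl2, Lmx1a, Bsx and Pou3f2 were higher than the mean.

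Sim1 is required for the neurons of the paraventricular nucleus, a source of vasopressin and oxytocin. It lay at 0 to 32.8 (median 10.2) normalized CPM in the hypothalamus, 0 to 0.845 (median 0) in the hippocampus, 0 to 0.133 (median 0) in the PFC and 0 to 5.31 (median 0.126) in the striatum. It was 0 in both litter 10 libraries and between 4.34 and 32.8 in the other 7, and those 7 were above every hippocampal and PFC library. The difference was large (log2FC 6.92 ± 0.79, adjusted p = 2.96e-10) and was called without litter 10 as well (log2FC 7.47, adjusted p = 1.39e-11). It lies on chromosome 10 from 50894754 to 50989152 (mm10) and no other gene body overlaps it.

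Nhlh2, a bHLH factor of neuroendocrine neurons whose loss in mice leads to obesity and infertility, lay at 2.8 to 10.5 (median 4.98) normalized CPM in the hypothalamus. The other ranges were 0 to 0.624 (median 0) in the hippocampus, 0 in every library of the PFC and 0 to 2.06 (median 0.283) in the striatum. Every hypothalamic library, litter 10 included (10.3 and 6.84), was above every library of the 3 regions. Nhlh2 is compact (chromosome 3 from 102010076 to 102015492), and both the all-gene fit (log2FC 6.30 ± 0.69, adjusted p = 4.76e-10) and the compact fit (log2FC 5.62 ± 0.68, adjusted p = 2.77e-08) called it higher than each region. Since the PFC libraries were all at 0, its level there gives only a bound, at least 159.9-fold higher in the hypothalamus against the floor of 3 counts over the group.

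Lhx1, a LIM homeodomain factor of the suprachiasmatic nucleus and mammillary region, reached 0.19 to 21.3 (median 8.9) normalized CPM and was again compact. It lay at 0 to 3.21 (median 0) in the hippocampus, 0 in every library of the PFC and 0 to 2.51 (median 0.404) in the striatum, and the hypothalamus was at least 288-fold higher than the PFC. The compact fit gave log2FC 5.46 ± 0.82, adjusted p = 3.25e-06. Its relative Lhx5 followed the same order, with a hypothalamic median of 1.93 and medians of 0, 0 and 0.243 in the hippocampus, PFC and striatum (log2FC 5.16 ± 0.77, adjusted p = 4.62e-07).

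Nkx2-1, needed to form the ventral hypothalamus, was called at log2FC 2.83 ± 0.73, adjusted p = 0.00142 but did not clear the striatum by the pairwise rule, and was not called with the trend removed (log2FC 1.80, adjusted p = 0.053). It was 0 in both litter 10 libraries and in 5-3, and at most 14.8 normalized CPM elsewhere in the hypothalamus. Barhl1, a mammillary marker, had a hypothalamic median of 1.53 normalized CPM against 0, 0 and 0.052 (log2FC 3.83 ± 0.86, adjusted p = 0.00025). The counts behind these low-level factors are few. Pou3f2, which acts in paraventricular neurons, lay at a median of 14.5 normalized CPM against 2.77, 9.76 and 3.86; its log2FC of 1.54 was 0.98 in the compact fit, but it was not called with the trend removed (log2FC 0.63, adjusted p = 0.258). Among the 3 compact genes of the list, Lhx1, Nhlh2 and Pou3f2, all 3 were called higher.

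**Figure D3:**
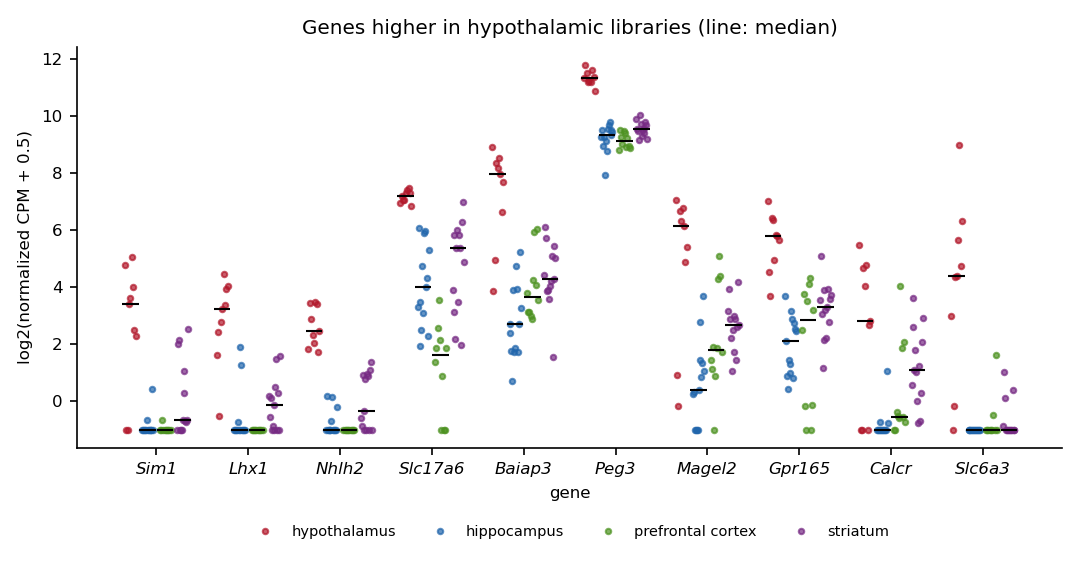
Log2(normalized CPM + 0.5) (y axis) of genes higher in the hypothalamus (x axis), with 1 point per SAL–SAL library coloured by region. The 9 hypothalamic points of Nhlh2 and Peg3 lie above all points of the other regions, whereas Sim1 and Slc6a3 include hypothalamic libraries at 0 normalized CPM.

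Telencephalic transcription factors showed the opposite direction. Of 21 tested, 13 were called lower and 0 higher in edgeR's quasi-likelihood test, where 21.8% of all genes were called in each direction. The same counts were found in DESeq2 and at an unadjusted p under 0.05, and 11 were lower without litter 10. The fit with the trend removed called 13 lower and 2, Cux1 and Rorb, higher. The median log2FC was -1.89 and -1.97 with the trend removed. Bcl11a, Bcl11b, Mef2c, Zbtb20, Nfix and Nfib were among those lower than each region, and Emx1, Emx2, Neurod2, Neurod6, Fezf2 and Zbtb18 were lower than the mean.

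Bcl11b (CTIP2), which specifies subcerebral projection neurons and medium spiny neurons, lay at 0.19 to 22.3 (median 4.55) normalized CPM in the hypothalamus. It lay at 114 to 488 (median 214) in the hippocampus, 193 to 2903 (median 611) in the PFC and 106 to 726 (median 294) in the striatum, so all 9 hypothalamic libraries were below all 36 others (log2FC -5.73 ± 0.51, adjusted p = 1.67e-13). Bcl11a (-1.82) and Mef2c (-2.22) fell less, from medians of 146, 153 and 108 and 309, 234 and 184 in the hippocampus, PFC and striatum to 36.5 and 56 normalized CPM. Nfix, a nuclear factor I family member, had a median of 1.86 against 156, 152 and 21 normalized CPM (log2FC -3.46). It was 40.9 and 38.4 in the oligodendrocyte-rich animals 4-1 and 9-4 and at most 5.72 in the other 7. Nfib, of the same family, was 59.6 and 73.6 there against at most 13.9, and Zbtb20, a zinc finger factor, 474 and 516 against at most 205. With the trend removed, Zbtb20 was not called. The part of glia in these levels was not tested.

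The compact members Neurod6 and Neurod2, bHLH factors of excitatory cortical neurons, were lower than the mean but not than each region and had striatal medians of 0.156 and 0 normalized CPM. Neurod6 had a hypothalamic median of 0.31 normalized CPM against 32.4, 5.5 and 0.156 (log2FC -4.34 ± 0.92, adjusted p = 0.000411 in the compact fit). Neurod2 was called in the all-gene fit (log2FC -2.86 ± 1.07, adjusted p = 0.0272) and not with the animal as replicate block (log2FC -2.69, adjusted p = 0.0638) or without litter 10 (log2FC -2.62, adjusted p = 0.0682). Its highest hypothalamic level, 10.9 normalized CPM, was in animal 9-4.

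Markers of cortical and hippocampal excitatory neurons were lower for 13 of 19 genes, against 21.8% of all genes in each direction, with 0 higher in edgeR's test, in DESeq2, at an unadjusted p under 0.05 and without litter 10. The fit with the trend removed called 14 lower and 1, Rasgrf2, higher. The median log2FC was -1.99, and 9 of the 13 were lower than each region. Itpka, an actin-bundling inositol kinase of dendritic spines, had hypothalamic levels of 0 to 4.5 (median 1.02) normalized CPM and 36.8 to 134 (median 74.6) in the hippocampus, 21 to 109 (median 67.1) in the PFC and 18.8 to 70.7 (median 37.8) in the striatum. No hypothalamic library reached the lowest of any other region (log2FC -5.30 ± 0.43, adjusted p = 8.79e-15). Nrgn (neurogranin), a postsynaptic calmodulin-binding protein, had a median of 4.84 against 213, 288 and 59 normalized CPM (log2FC -3.99). Crym, a thyroid hormone-binding protein of deep cortical layers, had a median of 0 normalized CPM against 52.7, 58.4 and 21.7 (log2FC -4.15 ± 0.73, adjusted p = 5.25e-06). It was 27.3 in animal 9-4 and at most 0.929 in the other 8 hypothalamic libraries (log2FC -8.38, adjusted p = 5.17e-14 without 9-4). Of the hippocampal subfield markers, 6 of 12 were lower and 0 higher in edgeR's test, beside the same 21.8%, also at an unadjusted p under 0.05 and without litter 10, while DESeq2 called 6 lower and 1 higher. Their median log2FC was -1.85, or -2.04 with genes at 0 throughout a region set to their bound, and -1.03 with the ratio trend removed, where 4 were lower and 0 higher in edgeR's test (4 and 1 at an unadjusted p under 0.05).

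Striatal medium spiny neuron markers were lower for 19 of 21 genes, where 21.8% of all genes were, with 0 higher in edgeR's test, in DESeq2 and at an unadjusted p under 0.05. The median log2FC was -3.01, and -1.98 with the trend removed, where 17 were lower and 0 higher, also at an unadjusted p under 0.05, and 15.1% of all genes were lower. These markers also ran high in PFC punches, at summed levels of 3492 to 22958 normalized CPM against 1817 to 18283 in the striatum, 1117 to 9979 in the hippocampus and 713 to 1619 in the hypothalamus. The PFC and striatal medians of these sums, 7895 and 7830, were close to each other. The highest hippocampal sum was that of animal 5-3 alone, and the next was 2256. Without this library 19 markers were lower and 1, Isl1, was higher, at a median log2FC of -2.66. Adora2a, the adenosine receptor of indirect-pathway neurons, was 0 in 8 of the 9 hypothalamic libraries and 0.643 normalized CPM in animal 9-4, with medians of 0.234, 60.9 and 55.3 in the hippocampus, PFC and striatum (log2FC -8.84 ± 1.52, adjusted p = 3.87e-06). Drd2, the dopamine receptor of the same neurons, had a hypothalamic median of 4.36 normalized CPM against 5.65, 155 and 179.5 (log2FC -4.23, -2.84 with the trend removed). Drd1, the receptor of direct-pathway neurons, is compact. Its levels were 0 to 5.16 (median 2.96) normalized CPM against 1.48 to 31.8 (median 2.63) in the hippocampus, 9.69 to 131 (median 34.5) in the PFC and 2.27 to 281 (median 59.3) in the striatum, so only the PFC was free of overlap, and the hypothalamic median lay above the hippocampal one. In the compact fit it was lower than the mean (log2FC -4.07 ± 0.61, adjusted p = 1.7e-06) and than each region, but the difference from the hippocampus (log2FC -1.93, adjusted p = 0.0185) was not called without the hippocampal library of 5-3 (log2FC -1.05, adjusted p = 0.155). Meis2, a homeobox factor of striatal neurons, lay at 0 to 26.7 (median 13.8) normalized CPM, below every library of 2 of the 3 regions (log2FC -4.80 ± 0.59, adjusted p = 2.14e-09).

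**Figure D4:**
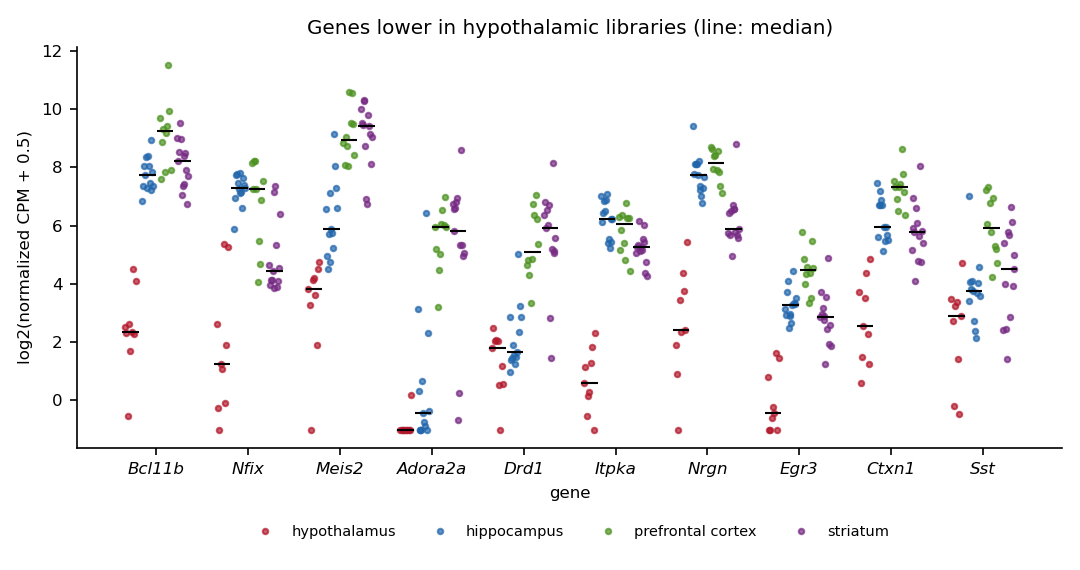
Log2(normalized CPM + 0.5) (y axis) of genes lower in the hypothalamus (x axis), with 1 point per SAL–SAL library coloured by region. The 9 hypothalamic points of Bcl11b and Itpka lie below all points of the other regions.

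Hypothalamic neuropeptides were called in both directions. Of 29 tested, 10 were called higher and 8 lower, where all genes gave 21.8% in each direction, and the median log2FC was -0.09. Once the trend was removed, 11 were higher and 5 lower, with a median of 0.83. The summed level of the 29 genes had a median of 192 normalized CPM in the hypothalamus and of 214, 758 and 631 in the hippocampus, PFC and striatum. Hcrt, Avp, Oxt, Trh, Gal, Nts, Nms, Npvf, Adcyap1 and Rln3 were higher, and Adcyap1 and Rln3 also than each region. Of these, Nms was 3.8 normalized CPM in animal 10-3, 0.545 in 3-2 and 0 in every other hypothalamic library. Npvf was 1.24 in 11-1, 3.11 in 4-1 and 0 in the rest, and Rln3 was 0 to 2.73. Agrp, Npy, Sst, Vip, Grp, Penk, Pdyn and Nucb2 were lower, several of which cortical and striatal interneurons or medium spiny neurons also make. With the replicate block, 8 were higher and 6 lower, and in DESeq2 6 and 8. Of 28 tested in each sex alone, 3 were higher and 4 lower in females, and 8 and 5 in males.

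Adcyap1 encodes PACAP, a peptide of ventromedial and paraventricular neurons. It lay at 0.344 to 26.6 (median 16.3) normalized CPM in the hypothalamus and 0 to 4.23 (median 1.18) in the hippocampus, 0 to 6.19 (median 0.0973) in the PFC and 0 to 7.96 (median 0.703) in the striatum; the compact fit gave log2FC 2.75 ± 0.70, adjusted p = 0.00306. Its low hypothalamic values, 0.344 and 2.47, were those of litter 10. Trh, thyrotropin-releasing hormone, reached 115, 62.6 and 50.2 normalized CPM in animals 1-3, 11-1 and 3-2, and the hypothalamic median was 4.02. It was called without the block (log2FC 2.74 ± 0.73, adjusted p = 0.00197), but neither with it (log2FC 2.82, adjusted p = 0.076) nor with the trend removed (log2FC 1.67, adjusted p = 0.0726).

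Vasopressin and oxytocin, the hormones of magnocellular neurons, were seen in few punches. Avp was 17.1, 12.4 and 13.1 normalized CPM in the same animals 1-3, 11-1 and 3-2, 2.39 in 4-1, and had a hypothalamic median of 0.161 (log2FC 5.32 ± 1.25, adjusted p = 0.000593). Oxt was found at 10.2, 5.88 and 6.18 in those 3 animals, with a hypothalamic median of 0 (log2FC 5.89 ± 1.40, adjusted p = 0.00104). The same 3 animals and 4-1 also carried the choroid plexus marker Ttr (transthyretin), at 171, 91.8, 65.6 and 189 normalized CPM against 0 to 3.05 in the other 5, and its part in the calls of Trh, Avp and Oxt was not tested. Hcrt, the orexin precursor of lateral hypothalamic neurons, was highest in 9-4 (23.6) and 1-3 (13.3), with a median of 4.65 (log2FC 6.75 ± 1.07, adjusted p = 7.99e-07). These calls rest on peptides that differ between punches of the same group.

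Gal (galanin) had a hypothalamic median of 7.39 normalized CPM against 0.135, 0 and 1.54 (log2FC 3.32 ± 0.86, adjusted p = 0.00143), and Nts (neurotensin) one of 9 against 0.808, 0.45 and 1.35 (log2FC 1.98 ± 0.73, adjusted p = 0.0237). Pomc and Agrp mark the arcuate neurons that curb and drive feeding. Pomc, the precursor of melanocortins, was not called (log2FC -0.27 ± 0.83, adjusted p = 0.841), with a hypothalamic range of 0 to 2.87 (median 0.873) normalized CPM. Agrp, the melanocortin antagonist, was called lower in the all-gene fit (log2FC -1.32 ± 0.46, adjusted p = 0.0167), not with the replicate block (log2FC -1.38, adjusted p = 0.0633), and higher at log2FC 1.48, adjusted p = 0.00378 with the trend removed. Its body spans 69.8 times its exons and overlaps other genes, so its direction is not settled by these counts. Cartpt was not called (log2FC 1.14 ± 0.78, adjusted p = 0.242), and just passed with the block (log2FC 2.39, adjusted p = 0.0497).

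Of the peptides called lower, Npy was lower than each region. It lay at 1.03 to 9 (median 2.18) normalized CPM in the hypothalamus and 2.01 to 119.6 (median 10.3) in the hippocampus, 18.9 to 139 (median 63.8) in the PFC and 3.21 to 102 (median 16.2) in the striatum (log2FC -3.10 ± 0.55, adjusted p = 7.43e-06). Sst, somatostatin, is compact and was lower than each region in that fit (log2FC -2.65 ± 0.53, adjusted p = 0.00022), with hypothalamic levels of 0.218 to 25.5 (median 6.96) and 3.94 to 128 (median 13.1) in the hippocampus, 18.2 to 159 (median 60.3) in the PFC and 2.17 to 98.8 (median 22.2) in the striatum. Penk (proenkephalin), abundant in indirect-pathway striatal neurons, had a hypothalamic median of 39.5 normalized CPM against 29.9, 404 and 434 (log2FC -2.94 ± 0.68, adjusted p = 0.000363).

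Genes of peptide processing and the secretory granule gave 5 higher and 5 lower of 15, beside 21.8% of all genes in each direction, at a median log2FC of -0.09. The split did not hold with the trend removed, where 6 were higher and 1, Chgb, was lower, at a median of 0.51. Baiap3, which acts in dense-core vesicle exocytosis, lay at 14.1 to 483 (median 247) normalized CPM against 1.11 to 37 (median 6.03) in the hippocampus, 6.95 to 65.4 (median 12.2) in the PFC and 2.45 to 68.8 (median 19.2) in the striatum (log2FC 3.91 ± 0.40, adjusted p = 9.01e-12). It was 14.1 and 30.8 in the litter 10 libraries, and other gene bodies overlap it. Resp18, a granule protein, was at 26.1 to 105 (median 66.9) normalized CPM, above every library of 2 regions (log2FC 2.42 ± 0.39, adjusted p = 1.11e-06).

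Scg2 (secretogranin II, the precursor of secretoneurin) had hypothalamic levels of 26 to 376 (median 227) normalized CPM against 30.6 to 133 (median 64.7) in the hippocampus, 0 to 219.6 (median 52.6) in the PFC and 22.1 to 221 (median 65.6) in the striatum. It was higher than each region (log2FC 1.41 ± 0.36, adjusted p = 0.00131), but not called with the trend removed (log2FC 0.74, adjusted p = 0.0698), and its lowest hypothalamic values, 38.5 and 26, were from litter 10. Chga, chromogranin A, differed by 0.91. Dlk1, an imprinted ligand of the Notch family, had a median of 46.2 against 0, 2.59 and 3.15 normalized CPM and stayed called in the compact fit (log2FC 2.90 ± 0.67, adjusted p = 0.00108). Pcsk2, the prohormone convertase PC2, was lower than each region in the all-gene fit (-1.90), with a body 34.2 times its exons, and its log2FC was -0.17 with the trend removed. Cpe, carboxypeptidase E, which trims the same precursors, went from -0.73 to 1.09, so with the correction for gene structure Cpe turned direction and Pcsk2 was no longer called.

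The promoters of the 4 genes below hold the full cAMP response element TGACGTCA, the site bound by CREB. They are shown because these genes, of the granule, dopamine, imprinted and peptide groups, include members that were higher and, with Sst, lower in the hypothalamus. Each sequence runs 5′ to 3′ on the gene's minus strand, from 250 bases before to 50 after the start, from RefSeq on GRCm38.p6, and capitals mark the element. The windows are chr1:79439977-79440276 (Scg2), chr7:142899946-142900245 (Th), chr7:6730370-6730669 (Peg3) and chr16:23890795-23891094 (Sst).
Scg2: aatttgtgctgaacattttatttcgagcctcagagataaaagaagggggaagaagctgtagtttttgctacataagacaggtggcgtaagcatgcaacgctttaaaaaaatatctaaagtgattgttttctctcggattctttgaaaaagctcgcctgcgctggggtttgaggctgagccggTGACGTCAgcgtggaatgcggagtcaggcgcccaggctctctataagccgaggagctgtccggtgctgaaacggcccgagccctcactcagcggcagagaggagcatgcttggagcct
Th: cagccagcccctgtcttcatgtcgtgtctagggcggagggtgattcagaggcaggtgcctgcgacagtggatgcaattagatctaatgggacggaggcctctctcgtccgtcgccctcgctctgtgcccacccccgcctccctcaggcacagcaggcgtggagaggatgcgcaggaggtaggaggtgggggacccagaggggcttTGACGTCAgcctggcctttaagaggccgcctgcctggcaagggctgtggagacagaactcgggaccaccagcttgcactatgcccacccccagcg
Peg3: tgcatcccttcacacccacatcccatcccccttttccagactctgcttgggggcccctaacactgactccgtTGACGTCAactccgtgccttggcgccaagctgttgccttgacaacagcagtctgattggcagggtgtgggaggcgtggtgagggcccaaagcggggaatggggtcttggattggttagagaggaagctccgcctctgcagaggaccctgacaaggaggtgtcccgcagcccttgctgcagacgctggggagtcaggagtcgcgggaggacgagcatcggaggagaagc
Sst: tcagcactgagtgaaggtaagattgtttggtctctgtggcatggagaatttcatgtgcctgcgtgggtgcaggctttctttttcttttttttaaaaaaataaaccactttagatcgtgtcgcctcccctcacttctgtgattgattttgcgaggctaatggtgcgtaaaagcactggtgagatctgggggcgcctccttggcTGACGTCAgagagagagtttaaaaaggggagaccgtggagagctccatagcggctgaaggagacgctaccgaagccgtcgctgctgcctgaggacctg
The element begins 68 bases before the start in Scg2, 45 in Th, 178 in Peg3 and 48 in Sst. It reads the same on both strands and was found in 1.88% of all 27025 promoters of that length and in 2.75% of the 13420 of tested genes. It was in 3.61% of the promoters of genes higher than each region and in 2.49% of those lower. Among compact genes it was found in 32 of 747 promoters of tested genes, in 3 of 89 of genes called higher and in 11 of 114 of genes called lower. Such a match is a description of the sequence.

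Receptors of feeding signals were called higher for 6 of 20 (Lepr, Ghsr, Mc3r, Calcr, Hcrtr1, Cckar) and lower for 3 (Ghr, Cckbr, Ntrk2), where 21.8% of all genes were called in each direction, with a median log2FC of -0.15. With the trend removed, 5 were higher and 2, Mchr1 and Ntrk2, were lower. Calcr, the calcitonin receptor of arcuate and preoptic neurons, lay at 0 to 44.1 (median 6.59) normalized CPM, 0 in both litter 10 libraries and in 5-1, against 0 to 1.59 (median 0) in the hippocampus, 0 to 15.8 (median 0.184) in the PFC and 0.0856 to 11.9 (median 1.62) in the striatum (log2FC 4.50 ± 0.82, adjusted p = 9.91e-06, and log2FC 5.10, adjusted p = 6.17e-07 without litter 10). Lepr, the leptin receptor, had a median of 7.43 normalized CPM against 3.19, 2.39 and 3.43 (log2FC 1.34 ± 0.43, adjusted p = 0.0101), and was not called without animal 4-1 (log2FC 1.00, adjusted p = 0.0781). Hcrtr1, an orexin receptor, had one of 10.4 against 1.41, 1.96 and 1.04 (log2FC 2.02 ± 0.64, adjusted p = 0.00879), and was not called without 9-4 (log2FC 1.75, adjusted p = 0.0525).

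Of 18 receptors for steroid, stress and reproductive hormones, 5 were higher (Prlr, Avpr1a, Kiss1r, Galr1, Vipr2) and 3 lower (Nr3c1, Nr3c2, Crhr1), and 3 and 2 with the replicate block, beside 21.8% of all genes in each direction. With the trend removed, 7 were higher and 0 lower in edgeR's test (8 and 2 at an unadjusted p under 0.05), so that none of the 3 lower calls remained. Vipr2, the VIP receptor of suprachiasmatic neurons, lay at 4.4 to 228 (median 34.8) normalized CPM against 0 to 63.3 (median 5.22) in the hippocampus, 0 to 3.5 (median 0) in the PFC and 0.223 to 41.7 (median 12) in the striatum, above every PFC library (log2FC 3.63 ± 0.60, adjusted p = 1.7e-06). Its highest level was in the thalamus-rich animal 10-1, with 51.3 in 10-3 and the lowest in 1-3, which had the lowest thalamic sum, and without litter 10 it was called at log2FC 2.95, adjusted p = 0.000868. The part of thalamic neurons in this level was not tested. Prlr, the prolactin receptor, ranged over 10.7 to 88.5 (median 40.8) normalized CPM (log2FC 2.18 ± 0.55, adjusted p = 0.00118), and Galr1, a galanin receptor, over 0 to 20.6 (median 5.75) (log2FC 3.29 ± 0.85, adjusted p = 0.00131). Esr1, the estrogen receptor of ventromedial and preoptic neurons, was not called (log2FC 0.17 ± 0.42, adjusted p = 0.787). Its hypothalamic range was 0.688 to 16.6 (median 10.3), with 0.688 in animal 10-1, and it was called higher with the trend removed (log2FC 1.56, adjusted p = 0.00113).

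Among the 9 glutamate and GABA transmitter genes, 2 were higher, Slc17a6 among them, and 1 lower, Slc17a7, beside 21.8% of all genes in each direction. Without litter 10, 1 was higher and 1 lower, and with the trend removed 2 were higher and 3 lower. Slc17a6 lay at 116 to 176 (median 147) normalized CPM in the hypothalamus and 3.34 to 67.3 (median 15.6) in the hippocampus, 0 to 11.2 (median 2.59) in the PFC and 3.45 to 126 (median 41.1) in the striatum. The 9 hypothalamic libraries were close to each other, litter 10 included, and above every library of 2 regions (log2FC 3.45 ± 0.41, adjusted p = 1.13e-09, and log2FC 3.58, adjusted p = 1.23e-08 without litter 10). Another gene body overlaps Slc17a6 on its strand, and thalamic neurons use the same transporter. Slc17a7 had a hypothalamic median of 16.9 normalized CPM against 156, 181 and 6.37 (log2FC -1.90 ± 0.68, adjusted p = 0.0196). The GABA genes were not called in the all-gene fit, with log2FC of -0.53 for Gad1, -0.20 for Gad2, the synthesizing enzymes, and -0.40 for the vesicular carrier Slc32a1. With the trend removed Gad1 (log2FC -0.72, adjusted p = 0.0457) and Slc32a1 (log2FC -1.20, adjusted p = 0.0446) were lower, and without animal 1-3 Gad1 was lower as well (log2FC -0.66, adjusted p = 0.0422).

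Of the 9 monoamine, cholinergic and glycinergic genes, 7 were higher (Th, Ddc, Slc18a2, Slc6a3, Hdc, Slc6a4, Slc6a5) and 1, Chat, was lower, where 21.8% of all genes were called each way, at a median log2FC of 3.16 and of 3.62 with the trend removed, where 8 were higher and 1 lower. Without animal 5-1, 6 were higher and the median was 2.61. The call lost was that of Slc6a4, the serotonin transporter, which was 12.7 normalized CPM in 5-1 and 0 to 0.239 in the other 8 (log2FC 3.62, adjusted p = 0.0102, and -0.82, adjusted p = 0.61 without 5-1). Th, the rate-limiting enzyme of dopamine synthesis, lay at 0.19 to 352 (median 24.9) normalized CPM and 0 to 2.19 (median 0) in the hippocampus, 0 to 30.6 (median 5.12) in the PFC and 0.214 to 15 (median 5.28) in the striatum (log2FC 4.56 ± 0.65, adjusted p = 8.7e-08). The highest hypothalamic library was 5-1 and the lowest were those of litter 10.

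Slc6a3, the dopamine transporter, was 506 normalized CPM in animal 5-1, 0 and 0.38 in litter 10, and had a median of 20.5. The hippocampal libraries were all at 0, so that the hypothalamus was at least 3311-fold higher there (at least 1311-fold without 5-1), and the PFC and striatal medians were 0 as well (log2FC 9.53 ± 0.84, adjusted p = 3.45e-12, and log2FC 8.04, adjusted p = 2.97e-10 without 5-1). Ddc, the next enzyme of the pathway, had a median of 20.1 normalized CPM against 1.04, 1.21 and 3.79 (log2FC 3.00 ± 0.61, adjusted p = 6.87e-05), and Hdc, which makes histamine in tuberomammillary neurons, one of 3.99 against 0.931, 0.229 and 0.703 (log2FC 3.16 ± 0.62, adjusted p = 3.42e-05). Hdc was 41.5 normalized CPM in animal 9-4 and 0 to 6.71 in the other 8 hypothalamic libraries (log2FC 2.09, adjusted p = 0.0116 without 9-4). Slc18a2, the vesicular monoamine carrier, differed less (log2FC 0.74 ± 0.20, adjusted p = 0.00229). Chat, the acetylcholine-synthesizing enzyme of striatal interneurons, was called lower (log2FC -3.24 ± 1.03, adjusted p = 0.00933), though not with the replicate block (log2FC -2.10, adjusted p = 0.168).

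Imprinted genes, expressed from 1 parental allele and long tied to hypothalamic growth and feeding control, were higher for 15 of 19 tested and lower for 2, Usp29 and Sgce, beside 21.8% of all genes in each direction. Their median log2FC was 1.19, and 1.20 with the trend removed, where 10 were higher and 2 lower, beside 19% and 15.1% of all genes. Summed levels were 11894 to 34343 normalized CPM in the hypothalamus, 2068 to 8739 in the hippocampus, 4293 to 13398 in the PFC and 3664 to 10398 in the striatum. Most of the hypothalamic sum was Meg3, at 7567 to 28829.9 normalized CPM. The highest sums, 34343 and 33050, were those of animals 10-1 and 10-3, where Meg3 was 28829.9 and 28058. Peg3, Magel2, Peg10, Gnas, Meg3 and Zim1 were higher than each region.

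Peg3, a paternally expressed zinc finger gene, lay at 1881 to 3531 (median 2584) normalized CPM in the hypothalamus. The other ranges were 245 to 887 (median 641) in the hippocampus, 449 to 727 (median 558) in the PFC and 574 to 1054 (median 749.8) in the striatum, so all 9 hypothalamic libraries were above all 36 others (log2FC 2.02 ± 0.13, adjusted p = 1.84e-18). In the compact fit Peg3 was still called against the mean (log2FC 1.40 ± 0.18, adjusted p = 2.77e-08), but it did not pass the pairwise rule. Meg3, a maternally expressed long non-coding RNA, lay at 7567 to 28829.9 (median 14404) against medians of 3741, 5746 and 5039, above every library of 2 regions (log2FC 1.77). Usp29, the neighbour of Peg3, went the other way (-2.09), from medians of 119.9, 275 and 304 to 54.3 normalized CPM.

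Magel2 and Ndn, neighbours in the Prader-Willi region, are both single-exon genes overlapped on the opposite strand. Magel2 was 0.38 to 134 (median 70.7) normalized CPM against 0 to 12.3 (median 0.819) in the hippocampus, 0 to 33.9 (median 2.97) in the PFC and 1.56 to 17.8 (median 5.89) in the striatum (log2FC 3.70 ± 0.56, adjusted p = 3.53e-07). Without the 1.38 and 0.38 of litter 10, the lowest hypothalamic library was 29. Ndn had a median of 336 against 85.9, 111 and 130.1 (log2FC 1.19 ± 0.31, adjusted p = 0.00173), and was not called with the trend removed (log2FC 0.37, adjusted p = 0.369). Peg10, a retrotransposon-derived gene, was compact and stayed called (log2FC 2.74 ± 0.61, adjusted p = 0.000711), and Zim1, beside Peg3, had a log2FC of 2.36. In litter 10, Peg10 was 1.38 and 0 normalized CPM, whereas Peg3 was 3531 and 2935 there.

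**Figure D5:**
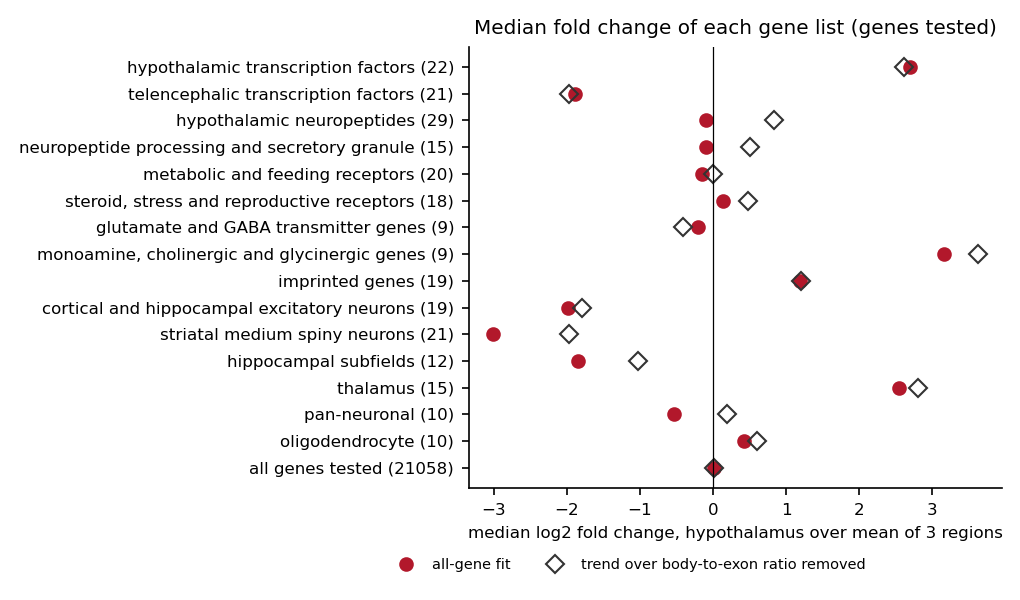
Median log2 fold change of the hypothalamus over the mean of the 3 regions (x axis) for each gene list (y axis, number of genes tested in brackets), in the all-gene fit (filled circles) and with the gene structure trend removed (open diamonds). Hypothalamic transcription factors stay at 2.69 and 2.61, whereas neuropeptides go from -0.09 to 0.83.

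The compact genes leave out most of the markers above, and the genes named in this and the next paragraph beyond Lhx1 and Nhlh2 were chosen after their values were seen, from the 9 higher and 39 lower than each region. The scaling within compact genes lowers their log2FC, whose median was 0.57 in the all-gene fit. Besides Gm26917, whose share of all counts is given above, the higher ones were Gpr165, Pgr15l, Sema4g, Pitpnm1, Plxna3 and Pnma3. Gpr165, an orphan receptor, lay at 12.5 to 131 (median 55) normalized CPM against 0.835 to 12.4 (median 3.81) in the hippocampus, 0 to 19.3 (median 6.83) in the PFC and 1.75 to 33.9 (median 9.3) in the striatum (log2FC 2.46 ± 0.43, adjusted p = 2.02e-05). Pgr15l, another orphan receptor, was at 0 to 19.1 (median 6.91) and at least 263-fold higher than in the PFC, where it was 0 throughout. Pitpnm1, a phosphatidylinositol transfer protein, lay at 374 to 863 (median 562) normalized CPM, above every library of each region, with medians of 121, 131 and 113 there (log2FC 1.46 ± 0.20, adjusted p = 3.88e-07). Sema4g, a semaphorin, was likewise free of overlap, at 59.8 to 123 (median 94.1) against medians of 13.6, 21.9 and 25.6 (compact log2FC 1.69). Plxna3, a semaphorin receptor, and Pnma3 had compact log2FC of 1.50 and 1.35.

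The 39 compact genes lower than each region were of many kinds, and no list was set for them. Some are used by most cells, such as Actb (cytoplasmic actin), Cycs (cytochrome c), Psmb6 (a proteasome subunit), Polr2e (an RNA polymerase subunit) and Rpl37a (a ribosomal protein), whose compact log2FC were -1.60, -1.07, -1.23, -1.21 and -1.37. Others are transcribed within minutes of neuronal firing. Of these, Egr1, Egr2, Egr3 and Egr4 encode zinc finger factors, and Arc a regulator of AMPA receptor trafficking. Egr1 lay at 41 to 52.6 (median 43.5) normalized CPM in the hypothalamus and 26.7 to 502 (median 80.9) in the hippocampus, 103 to 562 (median 224) in the PFC and 28.3 to 423 (median 56) in the striatum (log2FC -2.07 ± 0.31, adjusted p = 1.31e-06). Egr3 was at 0 to 2.62 (median 0.239) against medians of 9.11, 21.6 and 6.76, below every hippocampal and PFC library (log2FC -4.62 ± 0.54, adjusted p = 5.63e-09). Arc was at 3.61 to 55.1 (median 24.7) against medians of 71.8, 126 and 41.5, with only the PFC free of overlap (log2FC -2.21 ± 0.35, adjusted p = 3.91e-06). Egr2 (-3.42), Egr4 (-3.78) and Ier5 (-3.54), a serum-response gene, were lower as well. Rprml (-4.83), Ankrd63 (-5.84), Lrrc10b (-5.92) and Ctxn1 (-3.78) were also lower. Ctxn1, cortexin, a neuronal membrane protein named for the cortex, lay at 1.03 to 28.6 (median 5.42) normalized CPM, below every hippocampal and PFC library, with medians of 61.6, 159 and 54.7 in the hippocampus, PFC and striatum.

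Pan-neuronal genes were lower for 6 of 10 and higher for 2 (Nefm, Syp), beside 21.8% of all genes in each direction. The counts were 4 lower and 3 higher with the replicate block or DESeq2's size factors, and 3 and 3 with library totals alone. Their median log2FC of -0.54 became 0.19 with the trend removed, where 3 were lower and 3 higher. Rbfox3, the gene of the sorted antigen, lay at 74 to 179.7 (median 118) normalized CPM in the hypothalamus and 464 to 3210.4 (median 1277) in the hippocampus, 808 to 5902 (median 2861) in the PFC and 296 to 2479 (median 1147) in the striatum, with no overlap (log2FC -3.87 ± 0.36, adjusted p = 7.1e-13). Its body spans 72.5 times its exons, and its log2FC was -1.19 with the trend removed. Snap25, of the vesicle fusion machinery, was lower (log2FC -0.60 ± 0.20, adjusted p = 0.0111), though not with the block (log2FC -0.53, adjusted p = 0.059), and Syp, synaptophysin, was higher (log2FC 0.62 ± 0.17, adjusted p = 0.00264). Neither was called with the trend removed (-0.19 and 0.09).

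Markers of the thalamus, which borders the hypothalamus, were higher for 13 of 15 genes and lower for 1, Rora, against 21.8% of all genes in each direction, at a median log2FC of 2.54. Their summed level went the other way, with a median of 1364 normalized CPM in the hypothalamus against 1671, 2071 and 3692 in the hippocampus, PFC and striatum, and Rora, which striatal and cortical neurons also express, had medians of 206 against 889.9, 1925 and 2355. Removing the trend gave 14 higher and 0 lower in edgeR's test, also at an unadjusted p under 0.05. Without litter 10, 6 were higher and 1 lower, and the median was 1.72, so the thalamic signal moved with these libraries and its part in the other results was not tested beyond the values without them. Prkcd, a kinase of thalamic relay neurons, was 1421 and 767 normalized CPM in animals 10-1 and 10-3, with a hypothalamic median of 256 and medians of 29.6, 2.62 and 78 elsewhere (log2FC 3.10 ± 0.65, adjusted p = 0.000102), or log2FC 2.19, adjusted p = 0.0371 without litter 10. Calb2 (calretinin), shared by thalamic midline and hypothalamic neurons, was higher than each region (log2FC 2.27 ± 0.53, adjusted p = 0.00044), as was Amotl1 (log2FC 2.41). Unlike the thalamic sum, Calb2 was lowest in litter 10, at 5.51 and 4.56 normalized CPM against 36.5 to 61.5 in the other 7. Slitrk6, a synaptic adhesion gene and compact, had a log2FC of 3.27 in that fit. Lef1, a Wnt-pathway factor, was not called without litter 10 (log2FC 1.84, adjusted p = 0.0697). Rora had a log2FC of -2.83, and of -0.42 with the trend removed, where it was not called.

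Glial and other non-neuronal lists differed in their share of calls, where 21.8% of all genes were called in each direction. Of 10 oligodendrocyte genes, 1, Mag, was higher (log2FC 1.28 ± 0.49, adjusted p = 0.0306), and with the trend removed 0 were called and 0 had an unadjusted p under 0.05. In males alone, 3 were lower and 0 higher in edgeR's test, also at an unadjusted p under 0.05. Without animal 4-1, edgeR called 0, and 0 had an unadjusted p under 0.05. Without 9-4, it called 0, and 1 had an unadjusted p under 0.05. Mag was not called with the block (log2FC 0.78, adjusted p = 0.172), whereas Mbp, not called in the all-gene fit (log2FC -0.21 ± 0.42, adjusted p = 0.737), was then lower (log2FC -0.91, adjusted p = 0.0374). The PFC and striatal libraries of animal 9-4 also carried the most oligodendrocyte signal of their regions, 5521 and 5040 normalized CPM.

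Beside the same 21.8%, 3 of 8 astrocyte genes were higher (Agt, S100b, Fgfr3), while in males alone 2 were lower and 0 higher in edgeR's test, with 2 higher and 3 lower at an unadjusted p under 0.05. Without 4-1, and likewise without 9-4, 2 were higher and 1 lower, and leaving out litter 10 gave 3 and 1. Agt, angiotensinogen, had a median of 7.42 normalized CPM against 3.82, 0.933 and 2.17 (log2FC 2.27 ± 0.51, adjusted p = 0.000234), with 49.1 in 4-1 and 56.7 in 9-4. It was called without 4-1 (log2FC 1.96, adjusted p = 0.00203) and without 9-4 (log2FC 1.87, adjusted p = 0.00332). Fgfr3 was called without the block (log2FC 1.86 ± 0.42, adjusted p = 0.000266) and not with it (log2FC 0.96, adjusted p = 0.106) or with the trend removed (log2FC 0.87, adjusted p = 0.107), and its log2FC was 1.23 without 4-1 and 1.49 without 9-4. Of the choroid plexus genes 4 of 6 were higher and 1 lower, or 1 and 1 without animal 4-1, and of the ependymal and tanycyte genes 2 of 5 were higher and 1 lower. Of the rest, 1 endothelial gene of 7 and 1 pituitary gene of 5 were higher. Of 4 oligodendrocyte precursor and 7 microglial genes, 0 were called by edgeR or DESeq2, and 0 had an unadjusted p under 0.05 in edgeR, while DESeq2 gave 2 precursor genes at that p. In males alone, edgeR called 2 microglial genes lower, with 3 at an unadjusted p under 0.05, and in females alone 1 precursor gene higher, with 2. With the replicate block, the astrocyte list gave 1 higher and 1 lower, the choroid plexus list 2 and 1, the ependymal list 1 and 1, and the oligodendrocyte and microglial lists each 1 lower. Without 4-1, and without 9-4, 1 microglial gene was lower, and the endothelial call was lost without 9-4 or 1-3, with the replicate block and in DESeq2, each with 0 at an unadjusted p under 0.05. Without 4-1, 5-1 or 5-3, and in DESeq2, 1 ependymal gene was higher, and without 1-3 2 were lower. Without 1-3, 10-1, 11-1 or 5-3, 2 pituitary genes were higher, as with the other scalings, and in DESeq2 0 were, with 1 at an unadjusted p under 0.05. With the trend removed, 3 choroid plexus, 2 astrocyte, 2 endothelial, 1 ependymal, 1 microglial and 1 pituitary genes were higher. That pituitary gene was Gh, at 9.11 normalized CPM in animal 10-3 and 0 in every other hypothalamic library.

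The genes with the largest differences among those at 10 normalized CPM or more were mostly genes with overlapping bodies or long introns. The 12 furthest above each region were Dmtf1, Cbx6, Usp10, Dpm1, Sdccag3, Slc6a9, Gpr75, Rogdi, Gtf3c2, Myadm, Ier3ip1 and Scly. All had medians of 0 in the 3 regions, and each of the 11 with known structure overlaps another gene body. Dmtf1, a cell-cycle factor used by most cells, lay at 82.2 to 162 (median 93) normalized CPM in the hypothalamus and 0 in every library of the hippocampus, 0 in every library of the PFC and 0 to 0.133 (median 0) in the striatum. Slc6a9, the glycine transporter, lay at 9.68 to 69.2 (median 16.3) against at most 0.317 normalized CPM elsewhere. The 12 furthest below were RP23-375H15.2, Lrrtm4, Hs6st3, Slc22a14, Pebp4, Nkain2, Ror1, Igsf11, Hs3st4, Prr7, Fhit and Arhgap10, of which 10 have bodies at least 29.9 times their exons. Lrrtm4, a synaptic adhesion protein, went from medians of 1585, 1416 and 1945 to 8.08 normalized CPM (log2FC -7.55, -4.07 with the trend removed), and Fhit, with a ratio of 1081, from a log2FC of -5.82 to one of 0.90.

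The same comparison in other animals of the series, in the same files, gave each condition its own values. The hypothalamic SAL–LPS animals were littermates of SAL–SAL animals, litter 10 included, so SAL–LPS and SAL–SAL do not come from independent litters. Higher than each region were 1170 genes in MOR–SAL (5.59%), 1053 in SAL–LPS (4.95%) and 913 in MOR–LPS (4.21%). Lower than each were 2293 (10.9%), 2248 (10.6%) and 2449 (11.3%). Against the mean, 5997 (28.6%), 5686 (26.7%) and 5264 (24.3%) were higher and 5353 (25.6%), 4664 (21.9%) and 5363 (24.7%) lower. The 568, 552 and 499 genes shared with the 978 of SAL–SAL made up 58.1, 56.4 and 51% of the SAL–SAL genes and 48.5, 52.4 and 54.7% of the genes of the other condition. Of the lower genes, 76.5, 77.3 and 75.7% of the 2156 were shared, and 1352 were lower and 393 higher in all 4 conditions. Hypothalamus and counting cannot be told apart in these conditions either. The hypothalamic libraries numbered 14 in MOR–SAL, 11 in SAL–LPS and 14 in MOR–LPS, and the labelled sex was contradicted by Y-linked counts in 2 of them, in 4 hippocampal and in 2 PFC libraries. The 2 hypothalamic ones, labelled female, had Y-linked counts of 81 and 98 CPM, and also Xist, at 738 and 498 CPM. In 1 more hypothalamic female the Y-linked counts lay between 20 and 50 CPM. Without these libraries 1197, 967 and 886 genes were higher and 2194, 2350 and 2432 lower than each region in MOR–SAL, SAL–LPS and MOR–LPS. Xist also went against the label of 2 hypothalamic females with Y-linked counts of at most 0.258 CPM, at 0.515 CPM in MOR–LPS and 78.6 CPM in SAL–LPS, where the other 19 females of these conditions were at 498 to 1435. Without them as well, 939 and 878 genes were higher and 2320 and 2373 lower than each region in SAL–LPS and MOR–LPS.

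Nhlh2, Sim1 and Peg3 were called higher against the mean in the all-gene fit of each other condition. The hypothalamic levels of Nhlh2 were 0 to 16.7 (median 7.26) in MOR–SAL, 0 to 11.5 (median 1.83) in SAL–LPS, 0 to 14.7 (median 4.43) in MOR–LPS, with log2FC of 4.48 in MOR–SAL, 4.50 in SAL–LPS and 3.29 in MOR–LPS. For Sim1 the log2FC were 6.45 in MOR–SAL, 5.61 in SAL–LPS and 5.05 in MOR–LPS, and for Peg3 1.87 in MOR–SAL, 1.54 in SAL–LPS and 1.20 in MOR–LPS. Bcl11b was lower in each, at -5.28 in MOR–SAL, -4.89 in SAL–LPS and -3.86 in MOR–LPS. Without the libraries that went against their sex, Sim1 in MOR–SAL moved to 8.33. Without the 2 low in Xist too, Nhlh2, Sim1, Peg3 and Bcl11b kept their calls in the all-gene fits of SAL–LPS and MOR–LPS. In edgeR's compact fit of these MOR–LPS libraries, Peg3 was not called (log2FC 0.39, adjusted p = 0.114). Prkcd gave -1.25 in MOR–SAL, 0.53 in SAL–LPS and -0.03 in MOR–LPS, where SAL–SAL gave 3.10. Of the compact genes, 28 (2.2%) were higher and 35 (2.75%) lower than each region in MOR–SAL, 7 (0.546%) and 19 (1.48%) in SAL–LPS, and 5 (0.402%) and 7 (0.563%) in MOR–LPS. Among them only Gpr165 was higher and Ankrd63, Ctxn1, Lrrc10b and Tmsb4x were lower than each region in all 4 conditions, also without the libraries that went against their sex or were low in Xist. Egr3 had a log2FC of -3.67 in MOR–SAL, -2.13 in SAL–LPS and -0.77 in MOR–LPS, and Arc of -2.05 in MOR–SAL, -0.85 in SAL–LPS and 0.00 in MOR–LPS, beside -4.05 and -1.68 in SAL–SAL. Without the libraries that went against their sex, edgeR did not call Egr3 in MOR–LPS (adjusted p = 0.22). Nor did it call Arc in SAL–LPS (adjusted p = 0.148) or MOR–LPS. The difference between conditions was not tested.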

How the data were processed

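Nuclear RNA-seq counts of sorted NeuN+ nuclei were analysed for the SAL–SAL libraries of 4 brain regions, grouped by the deposited labels. The authors made gene counts from trimmed reads on the mm10 build with STAR, and the submitters' processing notes name Trim Galore 0.6.7, STAR 2.7.10a, HTSeq 0.12.4 and DESeq2 1.40.2. The values used here are the raw counts per gene that the authors deposited, 1 table per region. Deposited CPM tables hold the same libraries and were not used. The strand setting of the counting is not given in the sources used here, so overlapping and antisense genes cannot be told apart, and copies of a multi-copy gene are uncertain.

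Tables were joined by gene symbol. Libraries under 0.5 times their region's median total were dropped, genes needed counts in all 4 regions and a total above 10, and 21058 were tested. Counts were scaled by TMM and fitted in edgeR 4.0.16 (R 4.3.3) by the quasi-likelihood test with region and sex as terms. The main contrast was the hypothalamus minus the equal-weight mean of the other regions, and pairwise contrasts came from the same fit. P-values, with Benjamini-Hochberg adjustment across the tested genes, measure the spread between libraries within a region. The main fit had no term for animal or litter, so libraries of the same animal and of littermates entered as independent. DESeq2 1.42.0 was an alternative. Total counts ran from 3128218 to 26176775. Floors of 3 counts cover counting error only, since reads without molecular identifiers are not independent molecules.

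Gene structure was taken from GENCODE M21, of the same build as the authors' annotation, for 93.9% of the tested genes. The trend over the ratio of body to exon length, exon length and exon GC content was removed from each library as an offset. Compact genes were fitted alone, with filterByExpr and TMM over them. Promoters came from RefSeq tables.

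The members and gene lists were chosen with earlier results of these data known, and the fits by gene structure after the data had been seen. Genes described are list members with a mean of at least 10 normalized CPM in a region, or markers at 0 that define a cell type, and the 12 genes in each direction with the largest weakest fold among those called against each region at that level. Symbols of the form Gm plus digits, ending in Rik or starting with AC, AL or BC plus digits were left out of the latter, which did not remove the clone name RP23-375H15.2, and a few list members that enter the counts are not reported by name here. List genes described below that level (Lhx1, Lhx5, Nhlh2, Nkx2-1, Barhl1, Nts, Avp, Oxt, Hcrt, Pomc, Agrp, Cartpt, Lepr, Galr1 and Hdc) and the genes taken from the compact set were chosen after their values were seen. The levels of Slc6a4, Nms, Npvf, Rln3 and Gh were added after they had been seen as well.

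The same replicate number marks the same animal in each region. Deviations from the region means correlated at a median of 0.044 over 20 same-animal pairs and -0.0119 over 304 other pairs, so animals are paired by the labels and only weakly in the data. Counts were simulated with 200 genes changed by a log2FC of 2, all of them at a mean above 10 normalized CPM. The all-gene fit over 20643 genes recovered 96% of these with 47 unchanged genes called, 43 of them under 1 CPM. The compact fit over 1183 genes recovered 84% with 8. Recovery of changed genes at lower levels was not simulated.

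Alternatives were DESeq2, other scalings, filters and gene sets, the animal as replicate block, low-depth libraries kept, litter 10, single hypothalamic libraries or, for the striatal markers, 1 hippocampal library left out, the regions pooled, no sex term, each sex alone, counts thinned to the lowest total, corrections for gene length, GC content and structure and, in the other conditions, libraries that go against their labelled sex, and females low in Xist (under 100 CPM), left out.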

Additional observations from a re-analysis of the deposited data

Results flagged for a closer look

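A value was picked out when the highest or lowest library of a hypothalamic or PFC group lay further from the next one than Dixon's test allows, on the log scale. This held for 37 of the 236 groups of the genes named above. Chance picks out about 1 in 20, and the groups share libraries, so the values below are not independent. All are in normalized CPM.

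Animal 10-1 gave the lowest hypothalamic value of Pou3f2 (2.06, next 11.6), Dlk1 (0.688, next 9.3), Esr1 (0.688, next 5.51), Zim1 (0, next 14.8) and Pgr15l (0, next 2.63). Animal 10-3 gave the lowest of Penk (1.71, next 23.7), Meis2 (0, next 3.28), Dpm1 (13.9, next 35) and Nkain2 (9.49, next 17.8). Both belong to litter 10, with the highest thalamic marker sums.

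Animal 9-4 gave the highest hypothalamic value of Neurod2 (10.9, next 1.92), Adora2a (0.643, next 0), Crym (27.3, next 0.929) and Ankrd63 (4.18, next 0.688), all of them genes of cortical or striatal neurons or low in the hypothalamus. Dmtf1 was highest in animal 1-3 (162, next 115) and Slc22a14 in animal 3-2 (0.909, next 0).

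In the PFC, animal 10-1 was alone in carrying Sim1 (0.133) and Hcrt (0.398), and animal 10-3 lacked Pou3f2 (0, next 3.85) and Scg2 (0, next 27.2). Gal was 11.5 and Scly 0.14 in animal 4-3. Animal 9-0 gave 11.9 for Galr1, 2.54 for Slc6a3, 0.574 for Sdccag3 and 1.31 for Rogdi. Vipr2 was 3.5 and Mbp 1201 in animal 9-4. In animal 4-1, Hdc was high (2.16), and Sema4g (1.92), Slc22a14 (3.0), Pebp4 (5.04) and Prr7 (0) were low. Plxna3 (0) and Syp (30.5) were low in animal 5-1. Dpm1 was 0.142 in animal 1-3, and Slc6a9 and Myadm were each 0.0828 in animal 3-0.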

How the results depend on the processing

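Most calls kept their direction and their side of the threshold. Of 118 named genes, 115 did so without litter 10, 116 in DESeq2, 118 with counts thinned to the lowest total and 109 with the replicate block, whose changed calls are given with the genes (Neurod2, Trh, Agrp, Chat, Snap25, Mag and Fgfr3 lost, Cartpt and Mbp gained). With the trend over the body-to-exon ratio removed, 116 could be fitted and 99 kept their call. Nkx2-1, Pou3f2, Trh, Scg2, Pcsk2, Ndn, Rora, Snap25, Syp, Mag and Fgfr3 lost it (11), Esr1, Slc32a1 and Gad1 gained it (3), and Agrp, Cpe and Fhit changed sign (3). Outside these 118, list genes that lost their call there included Lhx9, Nr5a1, Zbtb20, Grp, Nucb2, Cckar, Ghr, Cckbr, Kiss1r and Nefm. With the trend over length and GC removed, 105 of 116 kept their call, and 60 of 63 in genes without overlap. The block by animal gave 3564 genes higher and 3812 lower. Females alone lost 25 calls and males alone 9.

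The counts moved as follows. Genes higher than each region numbered 1534 with library totals as the only scaling, 418 in females and 536 in males, and females gave 2602 higher and 2835 lower against the mean. With genes at 0 throughout a file included, 10629 were higher and 6497 higher than each region. Genes lower than each region numbered 1064 with the trend over gene length and GC content removed, and 734 with the trend over the body-to-exon ratio removed, which left 2992 lower against the mean. Genes without overlapping bodies gave 1476 higher, 2006 lower, 172 higher than each region and 763 lower than each. Compact genes gave 142, 156, 9 and 39, and without litter 10 85, 105, 6 and 34. Leaving out 1 hypothalamic library gave 4285 to 4376 higher, 4227 to 4559 lower, 900 to 986 higher than each and 2034 to 2209 lower than each, and among compact genes 104 to 149, 131 to 164, 5 to 9 and 32 to 46. The lowest of these, 5, was without animal 1-3.

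List medians are relative to all genes tested. The hypothalamic transcription factors were at 3.75 in males. Neuropeptides changed sign from -0.11 to 0.61 in males, 0.82 with the ratio trend removed and 0.57 in genes without overlap. Pan-neuronal genes went from -0.55 to 0.34 with length and GC removed, 0.17 with the ratio trend removed and -0.15 without overlap, and oligodendrocyte genes from 0.41 to -0.70 in males. Without overlapping genes, telencephalic factors were at -2.64 and imprinted genes at 2.10. Striatal markers went from -3.03 to -2.41 with the block, -2.33 with length and GC and -1.997 with the ratio trend removed, and were at -3.05 to -2.67 with single libraries left out, the latter without the hippocampal one of animal 5-3, chosen after seeing the data. Hippocampal subfield markers went from -1.86 to -1.32 in DESeq2, -1.42 with the block, -1.60 without litter 10, -2.42 with the regions pooled, -1.56 in females, -2.21 thinned, -1.26 and -1.05 with the 2 trends removed, and -2.14 to -1.73 with single libraries left out. The log2FC of the genes that changed sign became 1.48 (Agrp), 1.09 (Cpe) and 0.90 (Fhit).

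The limits are those of the counts. Where genes overlap or have long introns, the hypothalamus and the way of counting cannot be told apart. The causes of the changes above were not tested. Fewer genes or libraries enter the fits of compact genes, genes without overlap and each sex, and the part of this was not tested either. Oxt, Avp, Hcrt, Nms, Npvf and Rln3 have few counts. A level of 0 allows up to 3 counts over the group.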
